A study of Mus musculus with 10 samples.

Results

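Myod1, the gene of the myogenic transcription factor MyoD, was examined here as a binding and acetylation target in fibroblasts that are mutant for it. The members were all peaks of the 7 deposited lists that overlap a window of 100 kb around the gene, on chromosome 7 at 53580000 to 53680000 in the mouse build mm9. They were chosen by position among the peaks that the authors had listed for a maximum coverage at or above a cutoff, and these coverages are given as a description, with no test. They numbered 15 of the 241128 peaks in all lists. The MyoD list held 5, the Myf5 list 9 and the list of acetylated histone H4 (H4Ac) in cells with MyoD 1. The H4Ac lists of cells with Myf5 and of cells with GFP held none, nor did the mock precipitations with the MyoD or the Myf5 antibody.

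All samples were mouse embryonic fibroblasts of the genotype MyoD-/-; Myf5-/-, named M&M MEFs in the labels. They carried lentiviral MyoD, lentiviral Myf5 or, as the control, lentiviral green fluorescent protein (GFP), taken up in the presence of polybrene. All were moved 24 h after infection to differentiation medium with insulin and transferrin, and were collected 20 h later. Factor chromatin was crosslinked and sonicated, whereas H4Ac chromatin was native and cut with micrococcal nuclease. Mock samples were precipitated with each factor antibody from cells with GFP, and no list was used for 3 input samples. There was a single list per group. By title, the list of each factor combines 2 replicates, which leaves no replicate error and allows no test between groups. The share of cells that took up virus, the number of viral copies, the promoter of the transgenes and the stretch of the gene missing from the mutant allele are not stated in the labels. No expression was measured, so the cell type label was not checked against markers, and the peaks average over infected and uninfected cells.

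MyoD is a basic helix-loop-helix protein that binds E-box sequences and directs cells to the skeletal muscle lineage. Myf5 is a close relative that is expressed earlier in much of the embryo. In muscle cells MyoD takes part in keeping its own gene active. Work in transgenic mice placed muscle enhancers of Myod1 upstream of the gene: a distal regulatory region, and a core enhancer that lies farther away. Acetylation of histone H4 marks chromatin in an active state. In the RefSeq gene order of GRCm38.p6 the protein-coding neighbours of Myod1 (gene ID 17927) are Otog, which encodes an inner ear protein, and Kcnc1, which encodes a potassium channel. Exons and the known enhancers were not placed, because no mm9 annotation was used. The gene was taken as the approximate interval 53631900 to 53634500, and distances are from the start of that interval.

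Each peak has the authors' maximum coverage, in reads, and the coverage cutoff of its class of GC content. The headers name no scaling to depth, and depth is unknown, so coverage was ranked within a list only. The percentile of a peak is the percentage of its own list with a lower coverage.

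Peaks at the gene and peaks upstream of it are described apart, because cells with MyoD carry a virus that expresses MyoD. Reads of its coding sequence can be placed on the gene, and the lists do not separate viral from chromosomal reads. Sites well upstream of the gene lie outside the coding sequence.

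Upstream of Myod1, MyoD had 3 peaks and Myf5 had 6, of which the nearest ends just before the gene and is described with it. Each upstream MyoD peak coincided with a Myf5 peak. The strongest upstream site of both factors was 10.1 to 10.9 kb before the gene by the MyoD edges. There the MyoD peak, at 53621027 to 53621782, had a coverage of 84 (percentile 75.2, cutoff 27, control coverage 3). The Myf5 peak, at 53620845 to 53621947, had a coverage of 234 (percentile 91.2, cutoff 27, control coverage 8). The centres of these peaks were 8.5 bp apart, the closest of the 5 overlapping pairs.

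The other upstream MyoD peaks were weak calls. At 53605453 to 53605926, which is 26.0 to 26.4 kb before the gene, MyoD coverage was 30, or 1.07 times its cutoff (percentile 6.65), and the Myf5 peak at 53605405 to 53606056 had a coverage of 71 (percentile 61.2). At 53608356 to 53608914, which is 23.0 to 23.5 kb before the gene, MyoD coverage was 29, again 1.07 times its cutoff (percentile 3.32), and the Myf5 peak at 53608416 to 53609410 had a coverage of 55 (percentile 49.2). By coverage, both sites stood among the weakest of the MyoD list and near the middle of the Myf5 list. These lists differ in length, at 45015 and 93787 peaks. When only sites with peaks of both factors were ranked, described below, the contrast was smaller. The MyoD control coverage was 2 at the first and 5 at the second, and coverage over control coverage plus 1 put them above 53.8% and 9.68% of the MyoD list.

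**Figure D1:**
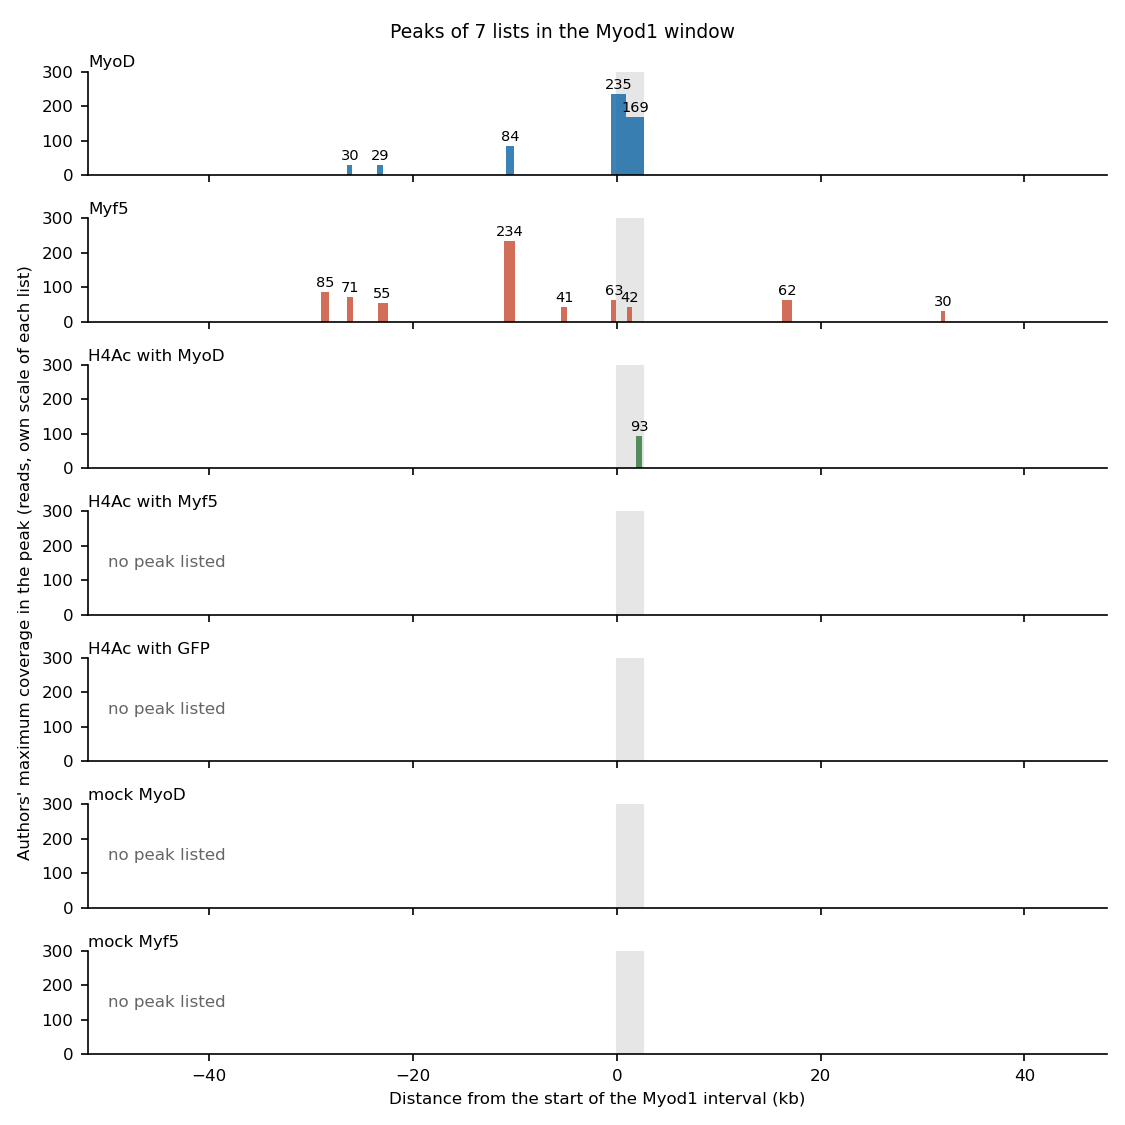
Peaks of the 7 lists in the Myod1 window, by distance from the start of the Myod1 interval (kb). Bars span each peak, their height is the authors' maximum coverage (reads, on the own scale of each list), the numbers repeat it, and grey marks the gene interval. MyoD is highest at the gene (235 and 169), Myf5 is highest upstream (234), and the single H4Ac peak (93) lies inside the gene.

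Several Myf5 peaks lacked a MyoD partner, on both sides of the gene. The strongest was the farthest upstream, at 53602855 to 53603642 (28.3 to 29.0 kb before the gene), with a coverage of 85 and percentile 68.0. Another, at 53626423 to 53627025 (4.88 to 5.48 kb before the gene), had a coverage of 41 and percentile 30.9. Downstream of the gene only Myf5 was called, at 53648111 to 53649075 with a coverage of 62 (percentile 55.1) and at 53663700 to 53664121 with a coverage of 30 (percentile 4.82), just above its cutoff of 29. The MyoD cutoffs of the GC classes of these 4 peaks were 27 and 28, so MyoD coverage above those values was not listed there, and lower coverage cannot be read from the list.

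All 5 MyoD peaks overlapped a Myf5 peak, and 97.5% of the whole MyoD list did so. Of the 9 Myf5 peaks, 5 overlapped a MyoD peak, where the whole Myf5 list gave 45.9%. Neither count stands apart from its list. In the whole Myf5 list the share with a MyoD peak depended on strength: it was 65.7% (95% exact binomial interval 64.8 to 66.7, counting error only) at coverages of 69 to 89, 16.5% (15.8 to 17.2) at 40 to 46, and 3.94% (3.56 to 4.35) at 28 to 31. The upstream Myf5 peak of coverage 85 falls in the first of these classes, that of coverage 41 in the second and the downstream peak of coverage 30 in the third. The other downstream peak, of coverage 62, falls in the class of 56 to 68, where the share was 44.5% (43.4 to 45.5). Among the 50737 Myf5 peaks with no overlapping MyoD peak, 3.92% had a coverage of 85 or more.

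**Figure D2:**
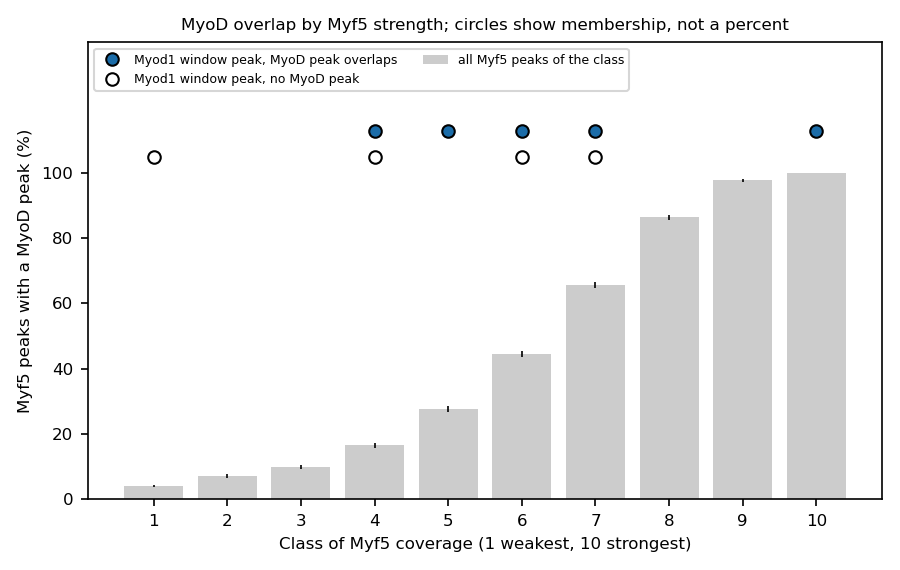
Percentage of Myf5 peaks that overlap a MyoD peak, in 10 classes of Myf5 coverage from weakest to strongest (grey bars, with exact 95% binomial intervals). Circles above the bars place the 9 Myf5 peaks of the Myod1 window in their class, filled where a MyoD peak overlaps (5 peaks) and open where none does (4 peaks).

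The peaks were not unusually many for a stretch of this length. Of 25780 tiles of 100 kb along the chromosomes, 12.7% held at least 5 MyoD peaks and 14.1% at least 9 Myf5 peaks. The median tile held 1 MyoD peak and 2 Myf5 peaks. At least 1 H4Ac peak with MyoD was held by 39.9% of tiles, while 60.4% held none with Myf5 and 62.1% none with GFP. The nearest peaks outside the window were a MyoD peak of coverage 82 and a Myf5 peak of coverage 147, which lay 7169 and 7055 bp before it. On the other side they were a MyoD peak of coverage 39 and a Myf5 peak of coverage 91, which lay 24172 and 24132 bp beyond it. The members nearest to the edges were Myf5 peaks, with coverages of 85 and 30.

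At the gene the order of the factors was turned round: MyoD peaks stood high in their list, at percentiles 96.0 and 92.1, and Myf5 peaks lower in theirs, at 55.9 and 32.6. By coverage over control coverage plus 1 the contrast was smaller, at 99.2 and 90.7 for MyoD and 78.4 and 57.5 for Myf5. The MyoD peak at 53631363 to 53632821 began 0.537 kb before the gene and ended 921 bp inside it. Its coverage was 235 (rank 1765 of 45015), the highest of the MyoD peaks in the window. The next, at 53632842 to 53634571, had a coverage of 169 (rank 3506). They were separated by 20 bp and together covered 99.2% of the gene interval. Of 44995 MyoD peaks with a following peak on their chromosome, 187 (0.416%) had it that close. They were also wide, at 1459 and 1730 bp, which exceeded 97.2% and 98.9% of the MyoD list, whereas the 3 upstream MyoD peaks were 474 to 756 bp wide. Control coverage at the pair was 2 and 5, against a list median of 5, and the MyoD mock list held no peak in the window. The mock cells carried no viral MyoD, so their empty list cannot show whether viral sequence adds to these peaks. The same holds for the control coverage if the control came from such cells.

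Myf5 had 2 short peaks at the same place. The peak at 53631368 to 53631848 ended 52 bp before the gene interval and had a coverage of 63 (percentile 55.9), with a control coverage of 5. The peak at 53632861 to 53633346, from 961 to 1446 bp inside the gene, had a coverage of 42, or 1.31 times its cutoff (percentile 32.6), with a control coverage of 6. Each lay wholly within a MyoD peak and began 5 or 19 bp after its start, with centres 484 and 603 bp from those of the MyoD peaks. Only the second reached the gene interval, of which it covered 18.7%. Cells with Myf5 carried no viral MyoD by their labels.

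**Figure D3:**
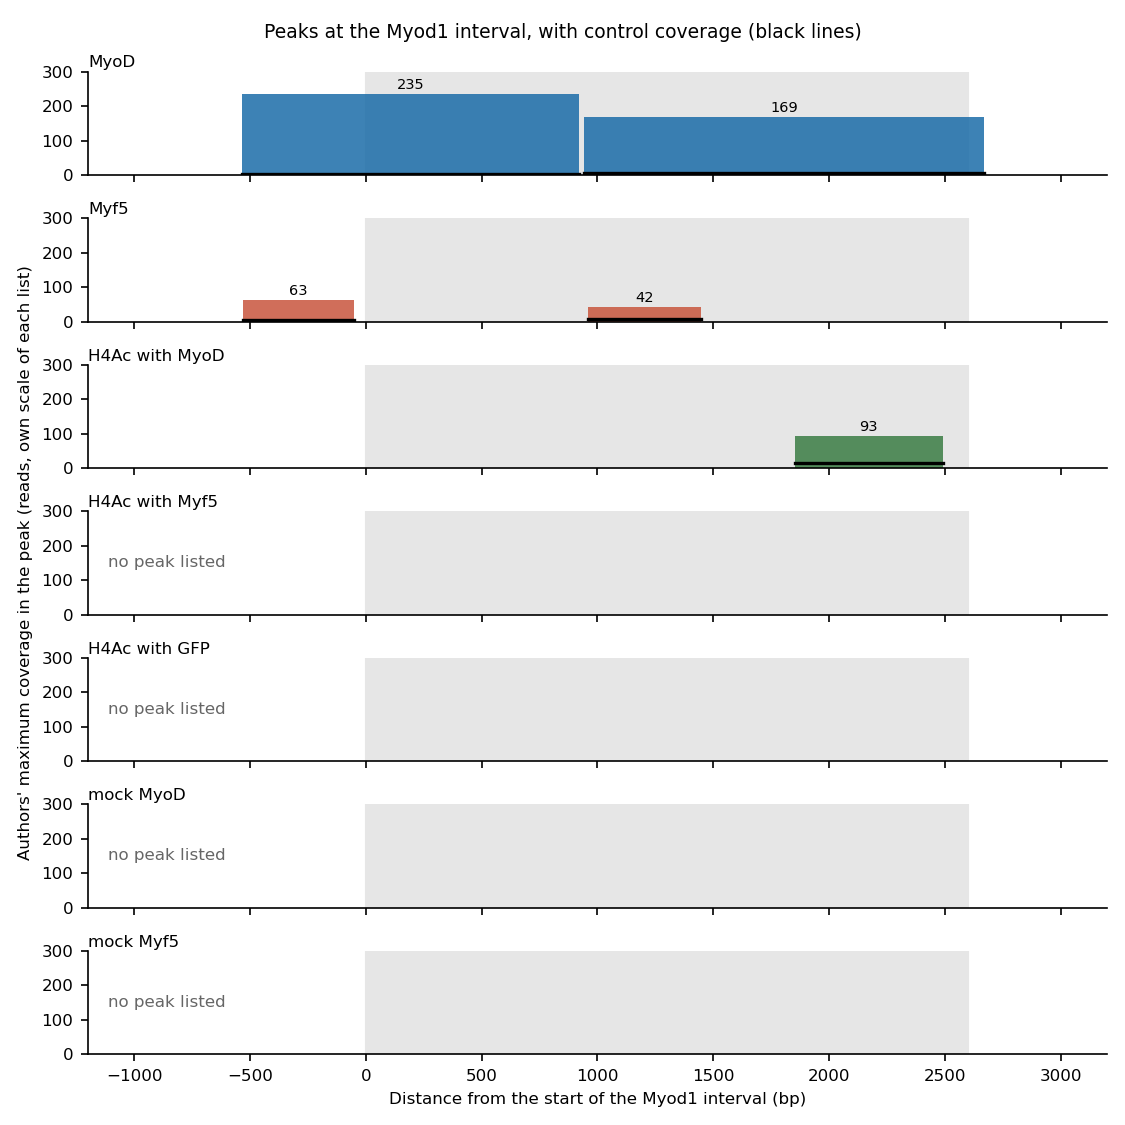
Peaks at and next to the Myod1 interval (grey), by distance from its start (bp). Bars span each peak with the authors' maximum coverage as height (reads, on the own scale of each list), and black lines give the control coverage. Both MyoD peaks (235 and 169) fill the interval, the Myf5 peaks (63 and 42) lie near the starts of the MyoD peaks, and H4Ac with MyoD (93, control 16) lies towards the end of the gene.

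The same coverages were ranked again for both factors over shared sites, the 43888 MyoD peaks with a Myf5 peak. This re-ranking is no separate evidence for the contrast between gene and upstream sites. At the second gene peak, MyoD coverage exceeded that of 91.9% of these sites and Myf5 coverage that of 4.90%, a gap of 87.0 percentage points. MyoD ranked above Myf5 at 50.9% of shared sites, and no other shared site had a gap as large in favour of MyoD, so 0.00228% of sites reached it. At the first gene peak the MyoD and Myf5 values were 96.0% and 18.5%, a gap of 77.4 points, which 6 sites (0.0137%) reached. At the upstream sites the gap was of the opposite sign, at -18.2, -9.83 and -5.46 points from the farthest to the nearest. Gaps as large in that direction were found at 14.0%, 24.6% and 32.8% of shared sites. Ranks in each whole list, the measure used above, gave smaller gaps at the gene and larger ones upstream: 40.1 and 59.6 points at the gene, and -54.5, -45.8 and -16.0 points upstream. On that scale MyoD ranked above Myf5 at 6.73% of shared sites. Gaps as large were found at 0.0911% and 0.0205% of sites for the gene, and at 7.68%, 14.4% and 56.7% for the upstream sites. Both rankings were chosen after seeing the data. Each rank uses the maximum of a whole peak, so the MyoD and Myf5 maxima at a shared site may lie at different places. Centres of the paired peaks were 484 and 603 bp apart at the gene, and 41, 278 and 8.5 bp apart upstream. The ranks describe single lists, and whether viral MyoD sequence contributed to the gene peaks was not tested.

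**Figure D4:**
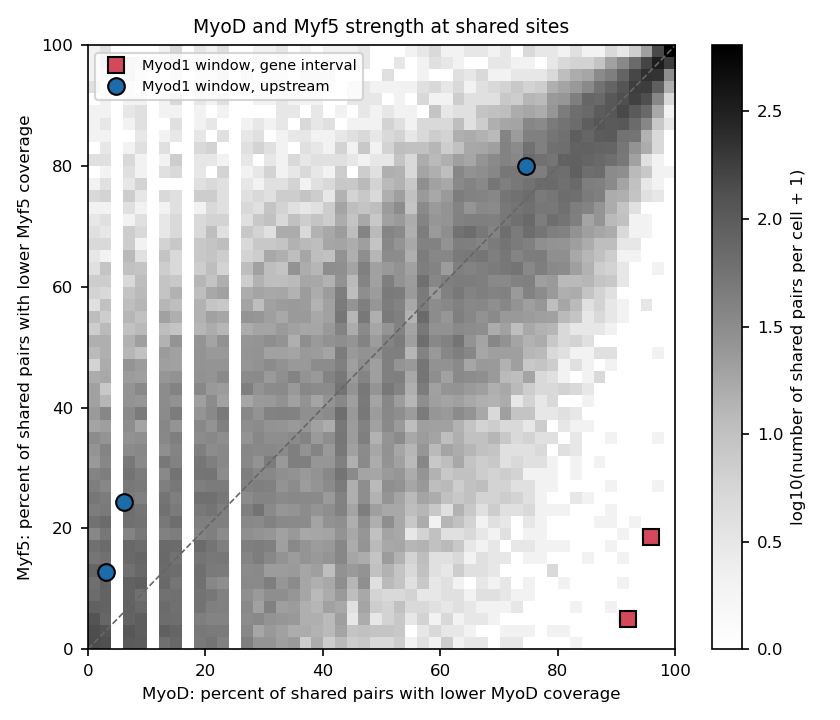
Strength of MyoD (horizontal axis) and Myf5 (vertical axis) at 43888 shared sites, each as the percentage of shared sites with lower coverage. Shading gives the number of sites (log10 scale) and the dashed line equal ranks. The 3 upstream sites of the Myod1 window (circles) lie within the cloud, and the 2 sites at the gene (squares) lie at high MyoD and low Myf5 ranks, with gaps of 77.4 and 87.0 points.

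**Figure D5:**
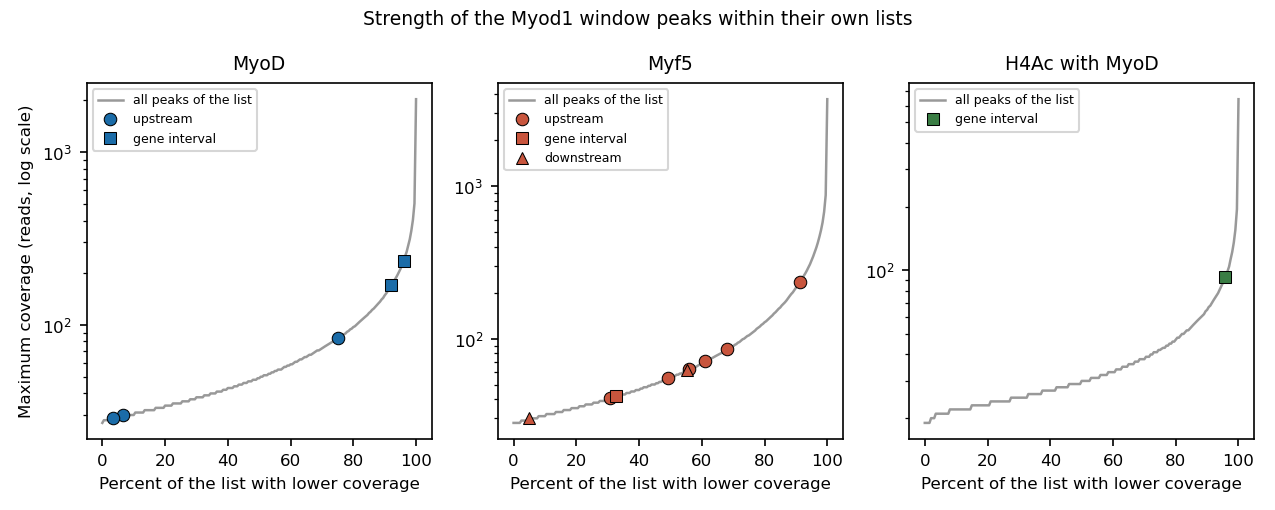
Coverage (reads, log scale) of the Myod1 window peaks against the percentage of their own list with lower coverage, for MyoD, Myf5 and H4Ac with MyoD. Grey lines are all peaks of a list, and symbols mark upstream, gene and downstream peaks (the Myf5 peak that ends 52 bp before the gene counts as upstream). The MyoD gene peaks stand at 96.0% and 92.1%, the strongest Myf5 peak at 91.2% is upstream, and the H4Ac peak stands at 95.8%.

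H4Ac was called at the locus in cells with MyoD, and in neither cells with Myf5 nor cells with GFP. The peak, at 53633753 to 53634390, lay 1853 to 2490 bp inside the gene and ended 110 bp before the end of the interval. Its coverage was 93, or 3.58 times its cutoff of 26 (percentile 95.8, rank 1509 of 36864). It lay wholly within the second MyoD gene peak (31.9% of that H4Ac list overlapped a MyoD peak) and began 406 bp after the end of the nearest Myf5 peak. No H4Ac peak of any population lay at the start of the gene or at an upstream factor site. In the GC class of this peak the cutoffs were 31 in cells with Myf5 and 30 in cells with GFP, and coverage below those values is not listed. Of the whole H4Ac list with MyoD, 17.3% of peaks overlapped none in cells with Myf5 or GFP, and 30.7% overlapped none in cells with GFP.

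The control coverage of the H4Ac peak was 16, a value reached by 18 of 36864 peaks (0.0488%), and the list median was 4. Its coverage was thus 5.47 times the control coverage plus 1, which exceeded 38.0% of the list, although its coverage alone exceeded 95.8%. By the control of their own list, the MyoD gene peaks had ratios of 78.3 and 28.2, above 99.2% and 90.7% of that list. Control coverage reached 153 in the H4Ac list and 20 in the MyoD list, so ratios of these lists cannot be set against each other. Which sample served as the control of the H4Ac list is not given in the sources used here. Among the 6388 peaks with MyoD that overlapped none with Myf5 or GFP, 4 (0.0626%) had a control coverage as high. The part of viral sequence in this peak was not tested.

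The factor sites away from the gene carried no H4Ac peak. Of the 5 MyoD peaks 1 overlapped an H4Ac peak in cells with MyoD, where the whole MyoD list gave 18.6%, and without the gene peaks the count was 0 of 3. In cells with GFP it was 0 of 5, where the whole list gave 14.4%. Of the 9 Myf5 peaks 0 overlapped an H4Ac peak in cells with Myf5, where the whole Myf5 list gave 11.9%, and 0 overlapped one in cells with MyoD (13.6% of the list). Such counts are too small to set apart from those shares. Of Myf5 peaks with a coverage of 216 or more, to which the upstream site of coverage 234 belongs, 21.5% (20.7 to 22.4) had an H4Ac peak in cells with Myf5. Of MyoD peaks with a coverage of 74 to 96, which include the same site, 20.8% (19.6 to 22.1) had one in cells with MyoD. Tiles of 100 kb with an H4Ac peak in cells with MyoD and none in the other populations made up 2.15% of all.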

How the data were processed

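The lists of peaks were used as deposited. Per the file headers, each peak has a position, a maximum coverage (signal) and a coverage cutoff by GC class, all set by the authors in whole numbers with no scaling named. The factor and H4Ac files add the coverage of a control. The authors' p-value of each peak, per the file headers, was not used here. The submitters' processing notes name CASAVA 1.8.2, BWA 0.7.5 and the builds mm9 and hg19, with no role. How peaks were called and the 2 replicates of a factor joined is not stated in the labels. Positions were read as mm9, and depth is unknown.

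Sharing 1 bp or more counted as overlap. Tiles ran from position 3000000. For ranks at shared sites, each MyoD peak was paired with its strongest overlapping Myf5 peak, a choice made after seeing the data. The members and lists were chosen with earlier results of these data known. Genes to be named were Myod1 and its neighbours, and all peaks in the window were named by position. A list of other muscle regulators, planned for an mm9 annotation, was not run. Alternatives were other overlap rules, window lengths, stronger peaks only and other measures of strength. The overlap function was checked on simulated peaks. Computation used Python 3.11.15 (numpy 2.4.6, pandas 2.3.3) with scipy 1.17.1 for intervals, and figures used matplotlib 3.10.9.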

Additional observations from a re-analysis of the deposited data

How the results depend on the processing

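Overlap counts in the window did not change when at least 50% of the shorter peak had to be shared or when edges within 500 bp sufficed. With peaks at or above the median coverage of both lists, 2 MyoD and 2 Myf5 peaks overlapped one of the other factor, against 5 each, since fewer peaks remain. At or above the median the MyoD list held 3 peaks in the window. Without peaks at the gene interval it also held 3, and H4Ac with MyoD held 0. A window of double length held 8 MyoD and 16 Myf5 peaks, 2 H4Ac peaks with MyoD and 1 with Myf5. A window of 50% of the length held 5 MyoD peaks, 7 Myf5 peaks and 1 H4Ac peak with MyoD. Ranks in the whole lists kept the sign of every MyoD minus Myf5 gap, but the 2 farther upstream gaps, of -54.5 and -45.8 points, were then larger in size than that of the first gene peak, at 40.1. Dividing by control coverage plus 1 moved the percentile of the H4Ac peak by 57.8 points. Those of MyoD peaks moved by up to 47.2 (the peak at 53605453, with a control coverage of 2), and those of Myf5 peaks by up to 26.0. Adding 10 in place of 1 lowered the ratio of the H4Ac peak to 3.58. Ranking within the GC class moved percentiles by up to 14.1 points for Myf5, 3.82 for MyoD and 2.97 for H4Ac. Ranking by coverage over cutoff moved them by up to 10.9, 2.79 and 2.32 points. By these measures the Myf5 gene peak at 53632861 stood at percentiles 18.5 and 21.7. No paired analysis was possible because each group has 1 list. Depth is unknown, so what coverage lay under the cutoffs cannot be read from the lists.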

Other observations

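The nearest site beyond the window on the downstream side, outside the members, carried both factors and H4Ac with either factor. It lay 69.7 kb beyond the end of the Myod1 interval by the MyoD edge, between 53704172 and 53705120 on chromosome 7. MyoD coverage was 39 (percentile 32.0) and Myf5 coverage 91 (percentile 70.3). H4Ac coverage there was 29 in cells with MyoD (percentile 46.0, cutoff 22) and 36 in cells with Myf5 (percentile 52.0, cutoff 27). In cells with GFP no H4Ac peak was listed until 285820 bp beyond the window. The GFP cutoff in the GC class of these H4Ac peaks was 26, and lower coverage is not listed. The share of all sites with such a pattern was not computed. On the other side, MyoD peaks of coverage 86 and 82 coincided with Myf5 peaks of coverage 176 and 147, and none of them had an H4Ac peak.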
